A study of Mus musculus with 4 samples.

Results

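Interleukin-4 (IL-4) and IL-13 drive macrophages into alternative activation, and 6 genes of that response were followed here in the immune cells of obese and lean fat. They are the receptor chain gene Il4ra, the signal transducer gene Stat6, and the response genes Retnla, Chil3, Mgl2 and Clec10a. The 6 genes were taken by name from the 35869 genes listed, with earlier results of these data known, and all 6 passed the filter on low values, as did 16849 genes in total. RNA-seq was performed on CD45+ cells, the immune fraction, isolated with microbeads from the stromal vascular fraction of the epididymal white adipose tissue (eWAT) of WT male C57BL/6 mice. The diets were a normal diet (ND), with 2 samples, and a diet in which most calories come from fat (HFD), also with 2 samples. Both diets began at 8 weeks of age and lasted 12 weeks. The number of mice behind each library is not given in the sources used here, so the p-values measure the spread between these samples, which may be technical. The unit of the values, TPM, counts transcripts after correction for gene length, scaled to the same total in every sample.

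IL-4 and IL-13 are made by T helper 2 cells, type 2 innate lymphoid cells (ILC2), eosinophils and mast cells. Both cytokines signal through a receptor that holds the IL-4 receptor alpha chain. For IL-4 this chain is paired with the common gamma chain (Il2rg) or with the IL-13 receptor alpha 1 chain (Il13ra1). For IL-13 it is paired with the IL-13 receptor alpha 1 chain. JAK kinases on the receptor phosphorylate STAT6, which enters the nucleus as a dimer and binds palindromic sites with the ends TTC and GAA. In lean adipose tissue, this pathway is known for its role in keeping macrophages in an alternatively activated state and for its link to insulin sensitivity.

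The promoter stretches of Retnla and Chil3 are shown because they held a match to such a palindrome. Windows of 250 bases before the transcript start (RefSeq, GRCm38.p6, the assembly called mm10) were at hand for 5 of the 6 genes, namely Il4ra, Stat6, Retnla, Chil3 and Mgl2. The motif TTCNNNNGAA, searched on both strands, was found in the window of 1 of them, Retnla, and in 5.85% of all 32851 windows of the same length. The motif TTCNNNGAA was found in the window of Chil3 alone among the 5 and in 7.02% of all windows. The fixed letters of both motifs read the same on either strand, and no match to one is a match to the other. The stretches run from position -220 to -71, counted back from -1 at the base before the transcript start, and capitals mark the match. GENCODE places the start of Retnla farther upstream, at base 48842551 of chromosome 16, and the stretch ends before it. The windows of Mgl2 and Stat6 end at bases 70130356 and 127642985, inside the spans printed for these genes, so they belong to transcripts with a later start. The stretch of Retnla lies at chr16:48842389-48842538 on the plus strand, with the match from -145 to -136, and that of Chil3 at chr3:106167635-106167784 on the minus strand, with the match from -172 to -164.
Retnla: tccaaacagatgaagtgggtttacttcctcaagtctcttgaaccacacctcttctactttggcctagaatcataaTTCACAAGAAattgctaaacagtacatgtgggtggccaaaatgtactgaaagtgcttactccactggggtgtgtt
Chil3: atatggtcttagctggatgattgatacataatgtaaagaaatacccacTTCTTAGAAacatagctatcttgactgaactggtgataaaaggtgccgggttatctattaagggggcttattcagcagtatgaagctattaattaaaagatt
These matches describe the letters of the windows, and binding of STAT6 was not measured.

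The 4 libraries were estimated to hold between 37600000 and 46900000 counted reads, from the smallest steps in the TPM of microRNA genes and GENCODE exon lengths. The CD45+ label was checked against 5 genes of immune cells. Ptprc, the gene of CD45, reached 54.5 and 59.4 TPM under ND and 55.3 and 53.7 TPM under HFD. Of the 5 genes Coro1a was called lower (log2 fold change -0.71, limma adjusted p = 0.0161), and their summed TPM was 3025.9 and 2960.1 in ND and 2441.9 and 2562.2 in HFD. The libraries also held transcripts of other cells. The summed TPM of 9 fibroblast markers was 619.6 and 662.9 in ND, 3112.2 in HFD replicate 1 and 6246 in HFD replicate 2. The summed TPM of 10 spermatid markers was 1848.6 and 1860.5 in ND, 6881.2 in HFD replicate 1 and 2102.5 in HFD replicate 2, so HFD replicate 1 stood apart. The fold changes of the 6 genes and of the pathway and family genes were therefore also computed without each library. In bulk samples, fewer cells of a type and less RNA per cell cannot be told apart.

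HFD and ND were compared to ask which of the 6 genes differed in the immune cells of obese adipose tissue. A total of 4 of the 6 genes, Retnla, Mgl2, Clec10a and Il4ra, were lower in HFD, none was called higher, and Stat6 and Chil3 were not called. A gene was called when its adjusted p-value in limma was under 0.05 (Benjamini-Hochberg over the 16849 genes) and its change was at least 1.5-fold on the log2(TPM + 1) scale. Among all genes tested, 18.4% were called, 10.3% as lower and 8.08% as higher in HFD. The median log2 fold change of the 6 genes was -0.96, and that of all genes tested was 0.056. In the same 4 genes both HFD values lay below both ND values, an arrangement found in 32.8% of all genes tested. A log2 fold change of -1 or lower was found for 3 of the 6, Retnla, Mgl2 and Clec10a, and for 6.04% of all genes tested. Without HFD replicate 1 the log2 fold change was -2.85 for Retnla, -2.64 for Mgl2, -1.13 for Clec10a and -0.71 for Il4ra. For Chil3 it was 0.71 and for Stat6 0.042. Without HFD replicate 2 the values were -1.92, -2.22, -1.08, -0.91, -0.52 and 0.041, in the same order. In both fits the spread rests on the ND pair alone, which differed from counting error by less than the HFD pair (1.73 times against 3.26 times). The remaining HFD sample is assumed to vary like the ND pair. Without either ND replicate, 0 of the 6 and 0 of all genes were called in limma, while 3862 genes without ND replicate 1 and 4024 without ND replicate 2 had an unadjusted p under 0.05. In these latter fits the spread rests on the HFD pair. The exact two-sided permutation test of each gene's 4 values cannot give a p under 0.333 with 2 samples against 2.

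**Figure D1:**
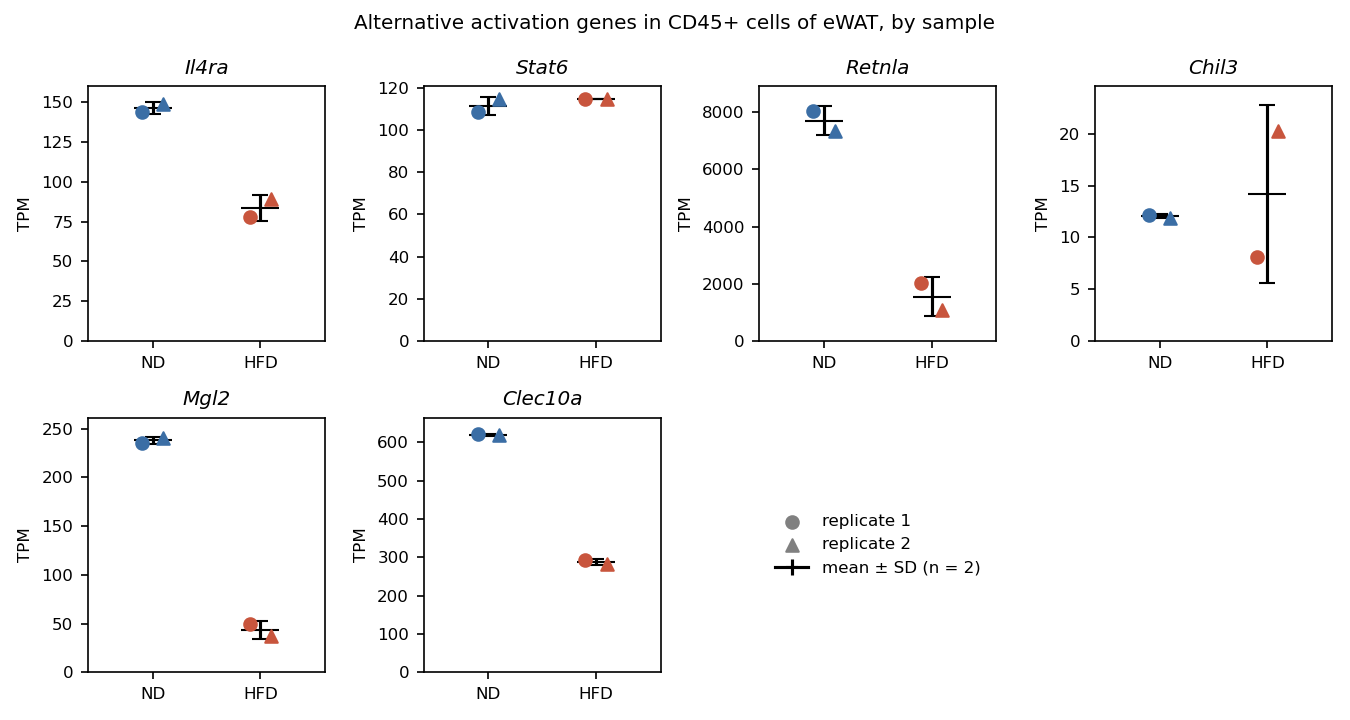
The plot shows the TPM (vertical axes, starting at 0) of the 6 genes in each of the 2 ND (blue) and 2 HFD (red) samples, with the mean and SD for each diet. Retnla, Mgl2, Clec10a and Il4ra lay lower in both HFD samples, Stat6 was nearly level at 108.5 to 114.8 TPM, and the HFD samples of Chil3 lay on either side of the ND samples.

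Il4ra encodes the receptor chain that IL-4 and IL-13 signals share, and it lies at chr7:125552271-125579474 in RefSeq. It reached 143.8 and 149.2 TPM under ND and 77.7 and 89.1 TPM under HFD. The groups did not overlap, and each pair of replicates stayed within a narrow range. Means were 146.5 ± 3.82 TPM with ND and 83.4 ± 8.06 TPM with HFD (± SD over 2 samples each), which is 1.76-fold lower. Il4ra changed by -0.81 on the log2(TPM + 1) scale (standard error 0.086, limma adjusted p = 0.0150), with a 95% interval from -1.07 to -0.55.

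The chains that pair with Il4ra moved in the same direction. Il2rg, the gene of the common gamma chain, reached 121.2 and 116.7 TPM under ND and 58 and 63.3 TPM under HFD (log2 fold change -0.96, limma adjusted p = 0.00800). Il13ra1 reached 54.8 and 58.7 TPM under ND and 31.8 and 35.1 TPM under HFD (log2 fold change -0.75, limma adjusted p = 0.0148). Il13ra2, the gene of the decoy receptor of IL-13, was listed at 0 in all 4 samples. All 3 receptor chain genes that could be tested were therefore lower in HFD, although Il13ra1 was not called without HFD replicate 1 (limma adjusted p = 0.0503).

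The ligands were low in these libraries. Il13 was listed at 9.9 and 9.8 TPM under ND and at 1.8 TPM in both HFD samples (log2 fold change -1.95, limma adjusted p = 0.00500). Il4 reached 3 and 5.4 TPM under ND and 1.5 and 1 TPM under HFD, with a log2 fold change of -1.18 that was not called (limma adjusted p = 0.0720). Markers of cells that make these cytokines moved as well. Of 8 ILC2 markers, 7 were lower in HFD, and their summed TPM was 306.3 and 316.3 in ND and 93.3 and 101 in HFD. This list holds Il13 itself. All 6 T cell markers tested were lower, with sums of 137 and 147 TPM under ND and 17 and 31.8 TPM under HFD. All 6 mast cell markers were lower, with sums of 1566 and 1583.5 TPM under ND and 381.4 and 487.8 TPM under HFD. Of 5 eosinophil markers tested, a list that holds the target gene Alox15, 3 were lower, while Epx and Ear6 were at 0 in every sample. Ccr3 went the other way, from 2.2 and 2.8 TPM under ND to 4.6 and 2.9 TPM under HFD, and was not called (log2 fold change 0.42). Siglecf was not called either (log2 fold change -0.66, limma adjusted p = 0.0636). The part of these cells in the values of the ligands and of Il2rg was not tested.

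Stat6, the gene of the transducer, lies at chr10:127642955-127660987 and was not called. It reached 108.5 and 114.5 TPM under ND and 114.7 and 114.8 TPM under HFD. The HFD values lay above the ND values by as little as 0.2 TPM. Means were 111.5 ± 4.24 TPM with ND and 114.75 ± 0.071 TPM with HFD (± SD over 2 samples each). Its log2 fold change was 0.042 (standard error 0.048, limma adjusted p = 0.572), and its 95% interval from -0.10 to 0.18 leaves out changes of 1.5-fold in either direction. The sign turned to -0.039 after quantile normalization and to -0.019 when TPM were rescaled without the 50 most abundant genes. The end of Stat6 overlaps the end of Nab2, which was listed at 55.5 to 64.1 TPM, and whether the strand was used in counting is not stated. Per Stat6 transcript there were 1.33 and 1.30 Il4ra transcripts in ND and 0.677 and 0.776 in HFD. Among the other 6 STAT genes only Stat2 was called, with a log2 fold change of -0.75 (limma adjusted p = 0.0116), which was under 1.5-fold with a pseudocount of 5 (-0.58), while Stat5b was also called after quantile normalization (-0.62) and after rescaling without the 50 most abundant genes (-0.59).

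Retnla encodes RELM-alpha (FIZZ1), a secreted protein that macrophages release when IL-4 reaches them, and it lies at chr16:48842609-48844461. It reached 8060.6 and 7343.4 TPM under ND and 2035.2 and 1066.7 TPM under HFD. Both HFD values lay far below the ND values, and the HFD samples differed from each other by 1.91-fold. Retnla was the gene with the 2nd highest TPM in ND replicate 1 and the 3rd highest in ND replicate 2, and it ranked 58 and 142 in the HFD replicates. Its share of all TPM was 0.806% and 0.734% in ND and 0.204% and 0.107% in HFD. The mean fell from 7702 ± 507 TPM to 1551 ± 685 TPM (± SD over 2 samples each), which is 4.97-fold lower. This is a log2 fold change of -2.38 (standard error 0.36, limma adjusted p = 0.0273), with a 95% interval from -3.47 to -1.30. Leaving out HFD replicate 1 gave -2.85, and leaving out HFD replicate 2 gave -1.92. With no filter on low values Retnla was not called (limma adjusted p = 0.0621). The match to TTCNNNNGAA shown above lies in the window before this gene. Duplicate reads were removed before counting, which can lower the values of short, abundant genes such as Retnla (599 exon bases), and by how much was not tested.

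The relatives of Retnla were far less abundant. Retn, the gene of resistin, reached 3.7 and 5.1 TPM under ND and 0.6 and 0.8 TPM under HFD (log2 fold change -1.66, limma adjusted p = 0.0160). Retnlg, a gene of neutrophils, reached 13.4 and 19.1 TPM under ND and 6.1 and 6.6 TPM under HFD (log2 fold change -1.21, limma adjusted p = 0.0317). Retnlb did not reach the filter, with at most 0.3 TPM. All 3 tested genes of the family were lower in HFD, but neither Retn nor Retnlg was called when either HFD replicate was left out. All 5 neutrophil markers tested, a list that holds Retnlg, were lower as well, with sums of 72.2 and 95.9 TPM under ND and 29 and 31.1 TPM under HFD.

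Chil3 encodes Ym1, a chitinase-like lectin without enzyme activity that is made by alternatively activated macrophages, monocytes and neutrophils, and it lies at chr3:106147554-106167564. It reached 12.2 and 11.9 TPM under ND and 8.1 and 20.3 TPM under HFD. The ND samples were nearly equal and lay between the HFD samples, which differed by 2.51-fold. Means were 12.05 ± 0.212 TPM with ND and 14.2 ± 8.63 TPM with HFD (± SD over 2 samples each). Chil3 thus had a log2 fold change of 0.093 (standard error 0.48, limma adjusted p = 0.898), and the 95% interval from -1.33 to 1.52 allows a change of more than 2-fold in either direction. It was 0.71 without HFD replicate 1 (limma adjusted p = 0.0370) and -0.52 without HFD replicate 2 (limma adjusted p = 0.0369), so the direction depended on the HFD library kept. Each of these p-values compares 1 HFD library with the ND pair, whose values were nearly equal, and takes the spread from that pair. Each value corresponds to approximately 214 to 466 reads, with a counting error of 4.63% to 6.84%, so the gap between the HFD samples is wider than counting error. The HFD replicate with the higher Chil3 had the lower Retnla.

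Chil4, the closest relative of Chil3, was listed at 0 to 0.2 TPM, and Chil1, Chil5, Chil6, Chia1 and Chit1 were at most 0.8 TPM. Chil3 was thus the only gene of 7 in the chitinase-like list to pass the filter. Reads that fit Chil3 and Chil4 alike could be split or dropped in counting, and how the authors treated them is not stated. The monocyte list, which holds Chil3, had 4 of 7 genes lower in HFD. Vcan went the other way, from 0.9 TPM in both ND samples to 2.5 and 6 TPM under HFD, and was not called (log2 fold change 1.38, limma adjusted p = 0.0884). Plac8 was not called either (log2 fold change -0.75, limma adjusted p = 0.172). Ly6c2, a surface protein of classical monocytes, was listed at 61.6 and 66.3 TPM under ND and 13 and 20.5 TPM under HFD, in the order of the replicates (log2 fold change -1.90, limma adjusted p = 0.0207). Ly6g, which defines neutrophils, was at most 0.1 TPM.

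Mgl2 (CD301b) and Clec10a (MGL1, CD301a) are neighboring genes on chromosome 11, at chr11:70130125-70137542 and chr11:70166623-70170836, with 29.1 kb and 0 other RefSeq genes between them. Both encode C-type lectins that bind galactose and N-acetylgalactosamine on macrophages and dendritic cells. Mgl2 reached 235.6 and 240.1 TPM under ND and 50.1 and 37.3 TPM under HFD. The ND values were nearly equal, and both HFD values were far below them. Means were 237.85 ± 3.18 TPM with ND and 43.7 ± 9.05 TPM with HFD (± SD over 2 samples each), which is 5.44-fold lower. Its log2 fold change was -2.43 (standard error 0.16, limma adjusted p = 0.00797), with a 95% interval from -2.92 to -1.94.

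Clec10a reached 621.4 and 618 TPM under ND and 292.4 and 282.3 TPM under HFD. The replicates of each diet differed by little, and the diets did not overlap. Means were 619.7 ± 2.40 TPM with ND and 287.35 ± 7.14 TPM with HFD (± SD over 2 samples each), which is 2.16-fold lower. The log2 fold change was -1.11 (standard error 0.037, limma adjusted p = 0.00449), with a 95% interval from -1.22 to -1.0, which was the narrowest among the 4 lower genes. Both lectins fell, and Mgl2 fell by more. Per Clec10a transcript there were 0.379 and 0.389 Mgl2 transcripts in ND and 0.171 and 0.132 in HFD. The difference between the changes of both genes was not tested. They are relatives in sequence, and how reads that fit both were counted is not stated.

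Related lectins fell together with them. Of 9 tested genes in the list of galactose and mannose lectins, which holds Mgl2 and Clec10a, 8 were lower in HFD. Cd209d was listed at 402.1 and 421.6 TPM under ND and 60.5 and 20 TPM under HFD, in the order of the replicates (log2 fold change -3.52, limma adjusted p = 0.0332). With no filter on low values Cd209d was not called (limma adjusted p = 0.0733). Cd209f (-3.36) and Cd209b (-3.31) changed to a similar extent in the main comparison and were likewise not called without the filter. Mrc1, the mannose receptor CD206, was lower by less, from 1144 and 1193.4 TPM under ND to 676.5 and 636.4 TPM under HFD (log2 fold change -0.83, limma adjusted p = 0.00697). Mrc2, a collagen receptor that fibroblasts also make, was the exception, at 1.8 TPM in both ND samples and 18.1 and 44.7 TPM under HFD, in the order of the replicates (log2 fold change 3.40, limma adjusted p = 0.0248). It was not called with no filter (limma adjusted p = 0.0590). The summed fibroblast markers were higher in HFD replicate 2 as well, and their part in Mrc2 was not tested.

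In ND the order of the levels was Retnla, Clec10a, Mgl2, Il4ra, Stat6 and Chil3. In HFD the order was Retnla, Clec10a, Stat6, Il4ra, Mgl2 and Chil3, so that Mgl2 lay below Il4ra and Stat6 in HFD alone. No neighbors overlapped in either order. Retnla made up 87.8% and 86.6% of the summed TPM of the 6 genes in ND and 78.9% and 66.2% in HFD. HFD replicate 2 had less Retnla, Mgl2 and Clec10a than HFD replicate 1, and more Il4ra and Chil3.

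**Figure D2:**
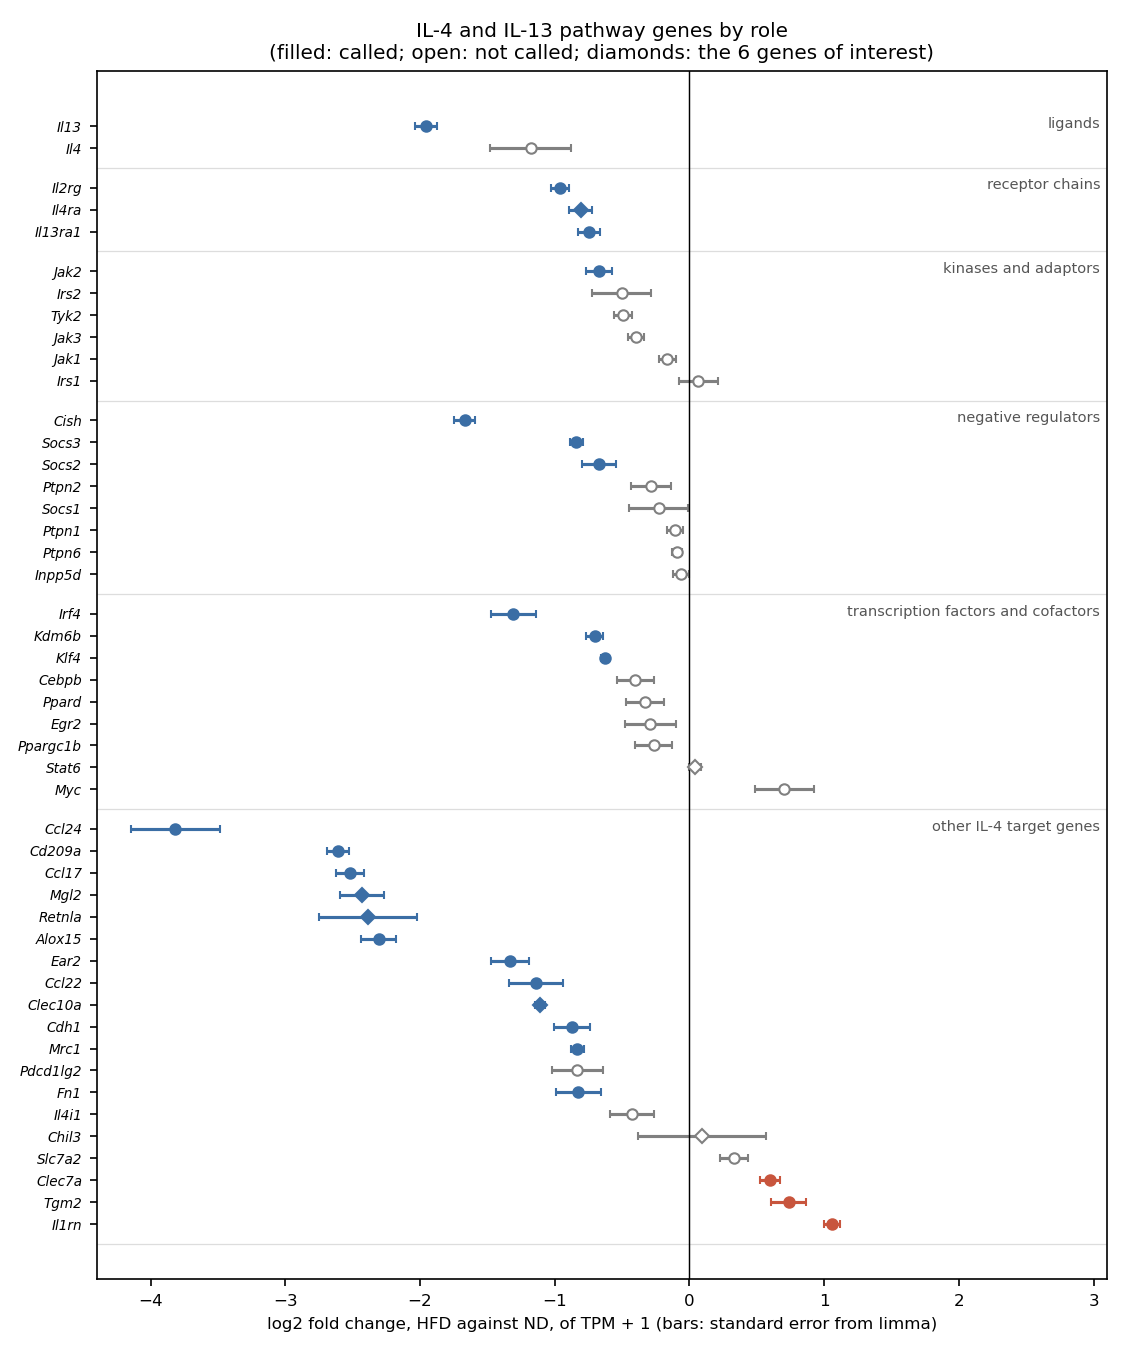
The plot gives the log2 fold change of HFD against ND (horizontal axis, TPM + 1 scale) with its standard error for the tested genes of the IL-4 and IL-13 pathway, grouped by role, with called genes filled and the 6 genes as diamonds. Ligands and receptor chains lie left of 0, and the targets run from -3.82 for Ccl24 to 1.06 for Il1rn; 1 tested gene is not drawn.

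The rest of the pathway was described from a list of 44 further genes, of which 42 could be tested. A total of 19 were lower in HFD, 4 were higher and 19 were not called, which is 45.2% lower and 9.52% higher, against 10.3% and 8.08% among all genes tested. Their median log2 fold change was -0.56, and both HFD values lay below both ND values in 34 of the 42, against 32.8% of all genes tested. With a limit of 2-fold, 9 were lower and 2 higher, and 1602 of all 16849 genes tested were called. With the replicate number as a block, 10 were lower and 1 higher, and 812 of all 16849 genes tested were called. Without either ND replicate 0 were called.

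Of 6 genes of kinases and adaptors, 16.7% were called, near the 18.4% among all genes tested. Jak2 alone was called, from 15.8 and 17.4 TPM under ND to 9.5 and 10.6 TPM under HFD (log2 fold change -0.67, limma adjusted p = 0.0252), and it was not called without either HFD replicate. Jak1, the main kinase of the IL-4 receptor, had a log2 fold change of -0.17 (limma adjusted p = 0.152). Jak3 (-0.39, limma adjusted p = 0.0263) and Tyk2 (-0.49, limma adjusted p = 0.0207) passed the p threshold and stayed under 1.5-fold. Of 8 negative regulators, 3 were lower. Socs2 was among them at low values, with 2.2 and 2.3 TPM under ND and 0.9 and 1.2 TPM under HFD. Socs2 was not called with no filter on low values (limma adjusted p = 0.0676) or after quantile normalization (limma adjusted p = 0.121). Cish, a feedback inhibitor that STAT factors induce, reached 27.3 and 27.2 TPM under ND and 7.5 and 8.3 TPM under HFD (log2 fold change -1.67, limma adjusted p = 0.00536). Socs3 had a log2 fold change of -0.84 (limma adjusted p = 0.00626), while Socs1, the inhibitor of IL-4 signaling, was at -0.23 and not called (limma adjusted p = 0.50).

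Among transcription factors and cofactors, a list that also holds Stat6, 3 of 10 were lower and 1 was higher. Irf4, a factor of alternative activation, reached 59.7 and 62.6 TPM under ND and 27.9 and 20.8 TPM under HFD (log2 fold change -1.31, limma adjusted p = 0.0199). Kdm6b, a histone demethylase that acts on Irf4, was at -0.70 (limma adjusted p = 0.0110), and Klf4, a partner of STAT6, was at -0.63 (limma adjusted p = 0.00555). The fall of Klf4 was under 1.5-fold after quantile normalization (-0.57).

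Of 17 other IL-4 target genes tested, 10 were lower, 3 were higher and 4 were not called. Cish, which was lower, and Socs1 stand in this list as well as among the negative regulators. Ccl24, a chemokine that draws eosinophils, reached 288.6 and 295.6 TPM under ND and 26.9 and 14.5 TPM under HFD (log2 fold change -3.82, limma adjusted p = 0.0109). Cd209a fell from 367.2 and 393 TPM to 65 and 58 TPM (log2 fold change -2.61, limma adjusted p = 0.00423), and Ccl17, a ligand of CCR4, fell from 11.4 and 10.7 TPM to 1.2 and 1 TPM (log2 fold change -2.52, limma adjusted p = 0.00500). The arachidonate lipoxygenase gene Alox15 was at -2.31 (limma adjusted p = 0.00633). Of the lower genes, Cdh1 (limma adjusted p = 0.0533), Ccl22 (0.0760) and Fn1 (0.0947) were not called with no filter on low values. Ear2 was not called with the replicate number as a block (limma adjusted p = 0.0534). The 3 higher genes were Il1rn, which encodes the antagonist of the IL-1 receptor (log2 fold change 1.06, limma adjusted p = 0.00626), the transglutaminase gene Tgm2 (0.74, adjusted p = 0.0360) and Clec7a, which encodes the receptor Dectin-1 (0.60, adjusted p = 0.0198). The change of Clec7a was under 1.5-fold after median-ratio scaling, quantile normalization and rescaling without the 50 most abundant genes, and that of Tgm2 was not called after the first 2 of these. Clec7a was not called without HFD replicate 1 (0.56, limma adjusted p = 0.0872) or HFD replicate 2 (0.63, limma adjusted p = 0.0678), and Tgm2 was under 1.5-fold without HFD replicate 2 (0.57).

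Macrophage markers were set beside the 6 genes. Of 10 general macrophage markers, 1 was lower, 2 were higher and 7 were not called, and their summed TPM was 21176 and 20519 in ND and 17505 and 18843 in HFD. The genes within this list did not move alike, since Cd68 was at 0.86 (limma adjusted p = 0.00481) and C1qa at -0.62 (adjusted p = 0.00824). All 8 resident macrophage markers, among them the lectin gene Cd209f, were lower, with a median log2 fold change of -2.76 and sums of 4847 and 4909 TPM under ND and 1265 and 941 TPM under HFD. All 12 markers of lipid-associated macrophages were higher, with sums of 1894 and 1944 TPM under ND and 11813 and 12391 TPM under HFD. Of 9 dendritic cell markers, Cd209a and Zbtb46 were lower and Sirpa was higher, with sums of 488 and 517 TPM under ND and 194 and 213 TPM under HFD. Cd209a, which is also counted among the targets and the lectins, made up most of this sum in ND. Without Cd209a the other 8 markers summed to 120.5 and 124 TPM under ND and to 128.8 and 155.1 TPM under HFD. Sirpa, the marker that was higher, reached 41 and 42 TPM under ND and 91 and 88.8 TPM under HFD. Without Cd209a and Sirpa the other 7 markers summed to 79.5 and 82 TPM under ND and to 37.8 and 66.3 TPM under HFD. Every one of these 7 lay below both ND values in both HFD samples, and Zbtb46 alone was called.

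Within each library, the 6 genes were then set against the summed macrophage markers, as a description with no test. Retnla was 38.1% and 35.8% of that sum in ND and 11.6% and 5.66% in HFD. Mgl2 was 1.11% and 1.17% in ND and 0.286% and 0.198% in HFD. On the log2 scale the difference of HFD from ND in this ratio was -2.18 for Retnla, -2.23 for Mgl2, -0.91 for Clec10a and -0.61 for Il4ra, with both HFD samples below both ND samples in each. It was 0.24 for Stat6 and 0.29 for Chil3.

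Set against the sum of the resident macrophage markers, a denominator chosen after the data were seen, the 6 genes separated. Retnla was 166% and 150% of that sum in ND and 161% and 113% in HFD, so HFD replicate 1 lay between the ND samples. Mgl2 was 4.86% and 4.89% in ND and 3.96% and 3.97% in HFD. These were the only members whose ratio was lower in HFD, with log2 differences of -0.22 for Retnla and -0.27 for Mgl2. The difference was 1.05 for Clec10a, 1.35 for Il4ra, 2.20 for Stat6 and 2.25 for Chil3. These ratios hold for the sum, since the log2 fold changes of the single resident markers ran from -3.59 for Timd4 to -1.09 for Folr2. The part of cell numbers in these values was not tested.

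**Figure D3:**
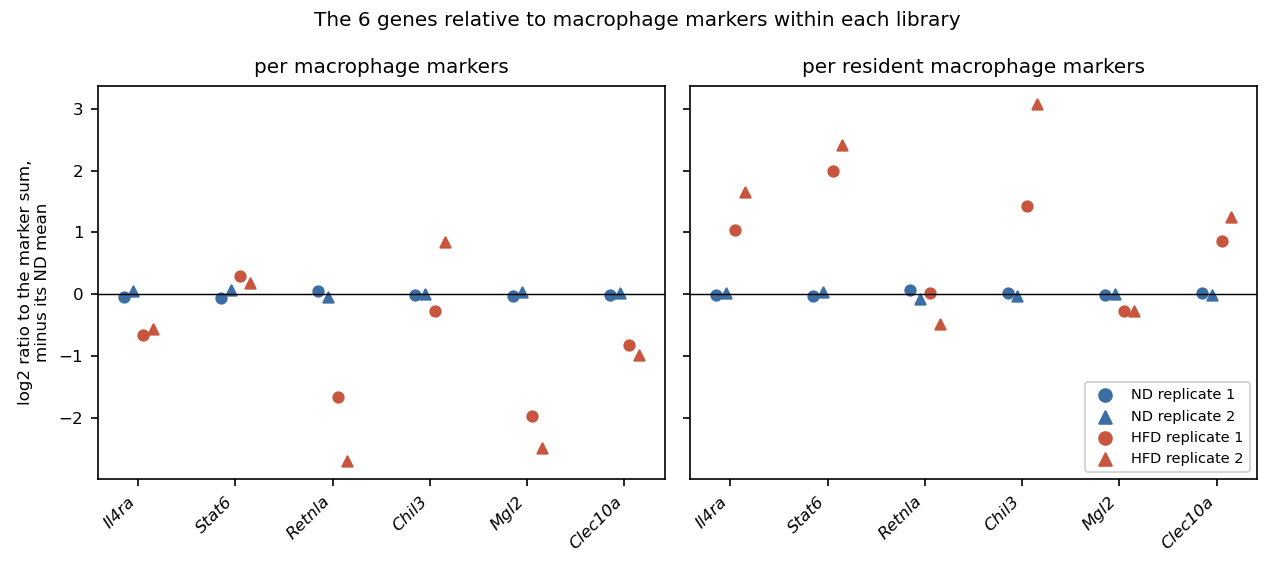
The plots show, for each of the 6 genes and 4 libraries, the log2 ratio of the gene to the summed TPM of the macrophage markers (left) or of the resident macrophage markers (right), minus the mean of the ND samples. On the left 4 genes lie below 0 in both HFD samples, and on the right Retnla in HFD replicate 1 lies among the ND samples and in HFD replicate 2 below them, Mgl2 lies slightly below 0 in both HFD samples (mean difference -0.27), while those of the other genes lie above 0.

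For each called gene the 3 genes with the most similar values were listed, by the root mean square difference of the centred log2(TPM + 1) values over the 4 samples, among the 10723 genes whose mean was 5 TPM or more. With 4 samples in 2 groups such a likeness is a description of size and spread alone. For Retnla they were Chp2 (0.098), Mir1901 (0.119) and F13a1 (0.135), of which F13a1 is in the resident macrophage list. For Mgl2 they were Gzma (0.025), Fxyd2 (0.026) and Sema4a (0.034), and for Clec10a Pld4 (0.018), Crb3 (0.018) and Gm30461 (0.019). For Il4ra they were Irf7 (0.017), Gm39972 (0.019) and Orai2 (0.019).

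**Figure D4:**
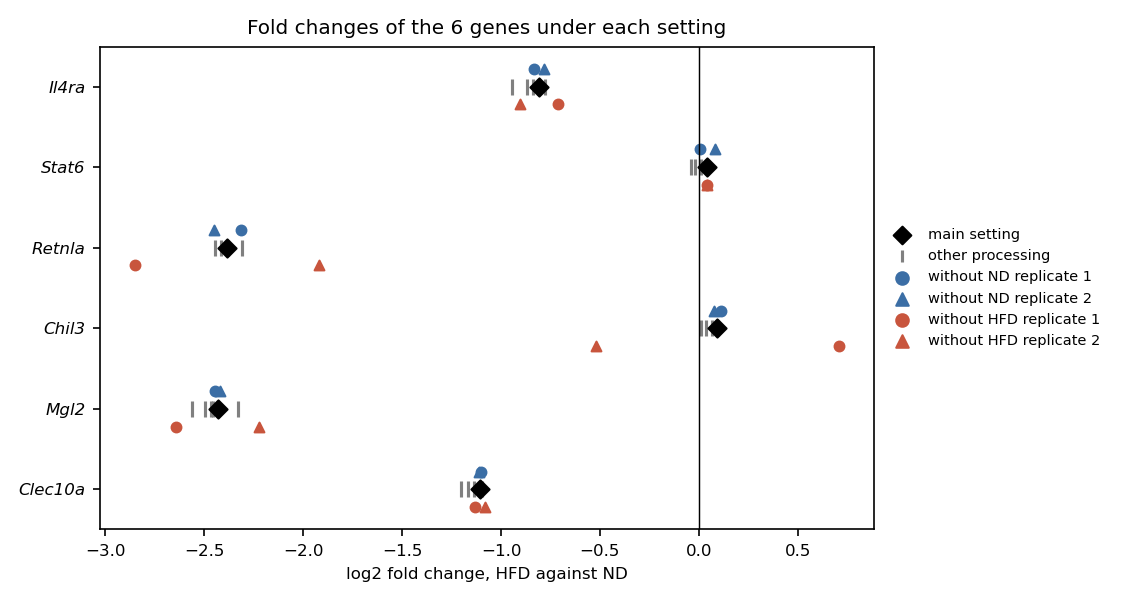
The plot gives the log2 fold change of HFD against ND (horizontal axis) of each of the 6 genes in the main setting (black), under the other processing settings (grey bars) and without each sample in turn (blue and red). The points of Retnla, Mgl2, Clec10a and Il4ra all lie below 0, those of Stat6 lie from -0.039 to 0.080, and Chil3 moves from -0.52 to 0.71 with the HFD sample left out.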

How the data were processed

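RNA-seq was performed by the authors on CD45+ cells of eWAT, with 2 ND and 2 HFD samples. Per the labels and the methods, stranded mRNA libraries were prepared, reads were trimmed with Trim Galore 0.4.2 and cutadapt 1.9.1, aligned to mm10 with STAR 2.6.1e, stripped of duplicates and counted with featureCounts 1.6.2. The authors deposited TPM per gene, printed to 1 decimal. The gene annotation and the use of strand are not given in the sources used here. No test made for counts was run on TPM.

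Genes with at least 1 TPM in at least 2 samples were compared as log2(TPM + 1) with limma 3.58.1 in R 4.3.3 (lmFit, eBayes with a variance trend), with Benjamini-Hochberg adjustment over all 16849 genes, a threshold of 0.05 and a change of at least 1.5-fold. In simulated data with 200 changed genes, 97.8% of 2-fold and 99.1% of 4-fold changes were called. The simulated spread was smoothed over genes of similar level and was equal in both diets. The real replicates differed by more in HFD than in ND, so these shares do not give the power of the comparison here. Replicates of a diet differed by more than counting error (1.73 times in ND, 3.26 times in HFD), so no library was taken for a repeat deposit of another. This does not show that they came from separate mice. Depth was estimated from the steps in microRNA genes (between 0.0607 and 0.0711 TPM for 1 read per kb) and is approximate. Positions and promoter windows are from RefSeq for GRCm38.p6. Figures were drawn with matplotlib 3.10.9.

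The named genes were the 6 members, up to 4 genes per list in order of their absolute change, other called genes of the lists, relatives of a member (Mrc1 among them) and the 3 most similar genes of each called member. Jak1, Socs1, single marker genes and genes named only for a sensitivity value were added after their values were seen. The members, lists and rules were chosen with earlier results of these data known. The lists named in the text were described by counts and sums, with no set test. Some genes of the response and of the pathway are not reported here. Alternatives were other pseudocounts, filters, scalings, variance models and fold limits, a replicate block, and each sample left out. Lists for T cells, B cells, adipocytes and mesothelial cells were also summed. All 5 B cell markers tested were lower in HFD, of 7 adipocyte markers 1 was lower and 1 higher, and of 5 mesothelial markers 1 was lower.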

Additional observations from a re-analysis of the deposited data

How the results depend on the processing

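The log2 fold changes of Retnla, Mgl2, Clec10a and Il4ra kept their direction in every fit, and the calls of Mgl2 and Clec10a held under each alternative that kept all 4 samples. Without a filter, which tests 29097 genes, Retnla (-2.38, adjusted p = 0.0621) was not called in limma, and neither were Jak2, Tgm2, Retnlg, Cd209b, Cd209d, Cd209f and Mrc2. Socs2, Ccl22, Cdh1 and Fn1 also lost their call there, with limma adjusted p up to 0.0947 for Fn1. A limit of 2-fold left out Il4ra (-0.81) and, with it, the other receptor chains Il2rg and Il13ra1. Stat6 turned to -0.039 after quantile normalization and to -0.019 without the 50 most abundant genes. When each sample was dropped in turn, values ran from -2.85 to -1.92 for Retnla, from -2.64 to -2.22 for Mgl2, from -1.13 to -1.08 for Clec10a, from -0.91 to -0.71 for Il4ra and from -0.52 to 0.71 for Chil3. For Chil3 the low end of that range came without HFD replicate 2 and the high end without HFD replicate 1. The number of called genes ran from 0 to 4232 and that of pathway genes from 0 to 20, with 0 without either ND replicate, where the adjusted p of these 4 genes lay from 0.161 to 0.238.

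The number of called genes was 3097. It was 2015 with a pseudocount of 5, 1602 with a limit of 2-fold and 812 with a replicate block, and 3203 with a pseudocount of 0.1. The number of called pathway genes was 23, and it was 11 with a limit of 2-fold and 11 with the replicate block (10 lower, 1 higher). With the replicate block, Retnla (-2.38, adjusted p = 0.0550) and Il4ra (-0.81, adjusted p = 0.0511) were not called, and neither were Il13ra1, Jak2, Irf4, Kdm6b, Tgm2, Clec7a, Retn, Retnlg, Stat2, Mrc2, Cd209b, Cd209d and Cd209f, with adjusted p from 0.0527 for Il13ra1 to 0.0764 for Jak2. Ear2, Ccl22, Fn1, Cdh1 and Socs2 also lost their call there, with limma adjusted p from 0.0534 for Ear2 to 0.117 for Socs2. The deviations of equally numbered samples from their group means had a correlation of -0.015 over the genes, and the labels name no shared batch, so the block is an alternative only. Relative to resident macrophage markers in place of macrophage markers, an alternative chosen after seeing the data, the differences moved to -0.22 for Retnla, 2.25 for Chil3, -0.27 for Mgl2, 1.05 for Clec10a, 1.35 for Il4ra and 2.20 for Stat6. Among the other list genes, without HFD replicate 1 or 2 the values were 0.046 and -0.50 for Socs1, 0.21 and -0.075 for Irs1 and -0.86 and 0.61 for Stat4. Of the 6 members Chil3 had the fewest reads and the widest counting error.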
